A study of Saccharomyces cerevisiae with 12 samples.

Results

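Ribosome footprint counts of 10 budding yeast genes of nitrogen uptake and use were followed across 6 groups of strain and temperature. They are the ammonium permease genes MEP1, MEP2 and MEP3, the amino acid permease genes GAP1, AGP1 and PUT4, the allantoate permease gene DAL5, the transcription factor gene DAL80, and the enzyme genes GLN1 and GDH2. All 10 members were found by systematic name among the 6697 genes of the count table, and all 10 passed the filter on low counts, which left 5719 genes. They were picked by name with earlier results of these same libraries known, and which values led to the choice is not recorded. Their values are therefore given as a description with no p-values printed, and their counts are set beside the share of all tested genes. Where a member is said to have risen, fallen or been called, a threshold on such p-values was used. Those calls, and whether they held with a library left out, describe these libraries and are not independent evidence.

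The study asked how yeast carrying a changed form of Ded1, an RNA helicase of translation initiation, translate their messages in heat. Every culture was W303 Ade+ yeast with the red fluorescent protein mCherry on Ded1. The strain called WT had the genotype Ded1-mCherry and the strain called IDRm had Ded1_IDRm-mCherry, and no untagged strain was among these samples. Cultures grown at 30 °C were kept for 10 min at 30, 40 or 42 °C, with 2 libraries for each of the 3 temperatures in each strain. The labels name duplicate pre-cultures of each strain and main cultures that were divided over the temperatures.

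Yeast takes up good nitrogen sources first and keeps genes for poor ones repressed while a good source lasts, a control known as nitrogen catabolite repression. The GATA factors Gln3 and Gat1 activate such genes, and the GATA factors Dal80 and Gzf3 repress them. Permeases at the cell surface are themselves removed when nitrogen is plentiful, through the ubiquitin ligase Rsp5 and its adaptors. Amino acids outside the cell are sensed by Ssy1, Ptr3 and Ssy5, which act through Stp1 and Stp2 on AGP1 and other permease genes.

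Libraries held 3429950 to 7851819 counts, and the members took 0.124% to 0.385% of them. DED1, the tagged gene, had group means of 1075 to 1431 CPM (gene counts scaled by the normalised library size to a common total). Its counts do not tell the alleles apart. At 40 °C DED1 had 1075 CPM in IDRm and 1317 in WT, a log2 difference of −0.29 (edgeR, adjusted p = 0.00148). At 30 and 42 °C the differences were 0.03 and −0.07 (edgeR, adjusted p = 0.834 and 0.423). The DED1 change from 30 to 40 °C in IDRm minus that in WT was −0.32 (edgeR, adjusted p = 0.0225). The heat-induced chaperone gene SSA4 had 158 and 484 CPM in the 2 WT libraries at 30 °C and 9880 to 29200 CPM in the heated libraries. The higher of these unheated values was in WT 30 °C replicate 2, which also had more HSP12, HSP26 and HSP104 than replicate 1. In IDRm at 30 °C replicate 2 likewise had more of each of these genes than replicate 1, with 351 against 204 CPM of SSA4. Results that change when either WT library at 30 °C is left out are named below. Levels are shares of a library, no matched RNA sequencing was analysed here, and footprint changes can therefore not be told apart from changes in RNA. In whole cultures, fewer cells with a gene on and less of it per cell cannot be told apart either.

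Sequence upstream of the members was searched for the GATA factor core GATAAG and for AGGGG, the stress element of Msn2 and Msn4, on both strands in the 500 bases before the start codon. GATAAG occurred in 7 of the 10 windows, each time at least 2 times, whereas 22.8% of the windows of 6000 coding genes held it and 3.63% held it 2 or more times. MEP2 had 7 matches, MEP3 5, GAP1 4, DAL5 and DAL80 3 each, and MEP1 and AGP1 2 each, and PUT4, GLN1 and GDH2 had none in this window. Of the other nitrogen genes described below, 35 of 69 held it, or 50.7%. AGGGG occurred upstream of PUT4 with 3 matches, MEP1 with 2, and GAP1 and AGP1 with 1 each, against 34.1% of all windows. One GATAAG match of GAP1 overlaps its AGGGG match by 2 bases. The windows below, 30 bases each from RefSeq's R64 genome and read on the gene's own strand, show the matches that lie at most 4 bases apart, and the GAP1 match that overlaps AGGGG. Capitals mark GATAAG or, for a match on the other strand, CTTATC, and runs of 11 capitals are 2 matches that share a base.
MEP2, 470 to 441 bases before the start codon, chrXIV:356983-357012: tttaaGATAAGaaaGATAAGATAAGacatc
MEP2, 337 to 308 bases before, chrXIV:357116-357145: tcaaagccaGATAAGATAAGaaatgtaaaa
MEP3, 258 to 229 bases before, chrXVI:812682-812711, minus strand: tccttgtCTTATCgcatCTTATCgcaacaa
DAL80, 298 to 269 bases before, chrXI:506600-506629: gtttccacCTTATCaCTTATCactagtgct
GAP1, 481 to 452 bases before, chrXI:514582-514611: ccatttccttttGATAAGgggtcgttggtg

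**Figure D1:**
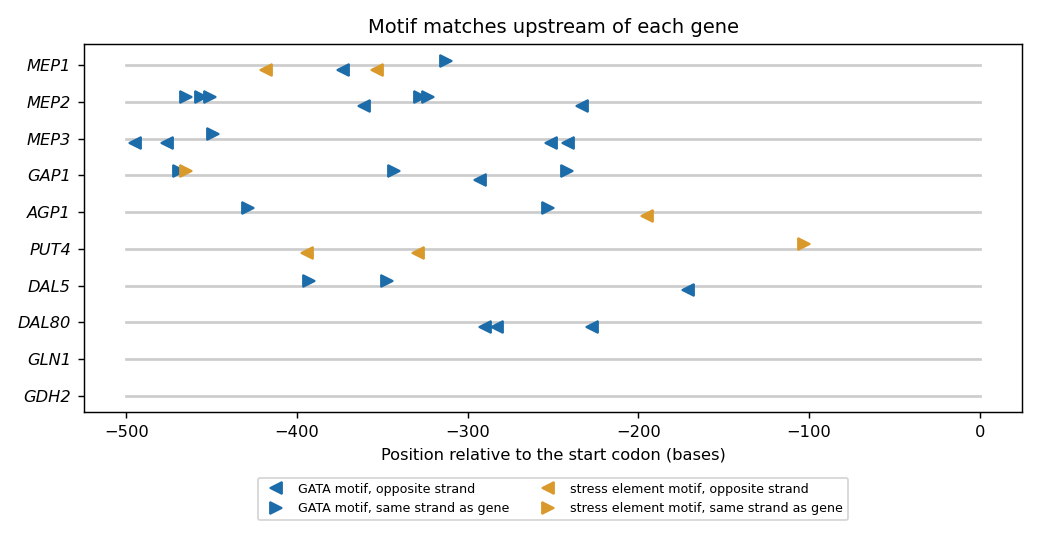
Matches to the GATA motif (blue) and the stress element motif (orange) by position in bases before the start codon (x) in each member (y), with arrowheads to the right for the gene's strand and to the left for the other strand. MEP2 has 7 GATA matches in 500 bases, and GLN1 and GDH2 have neither motif.

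Differences are log2 fold changes ± approximate standard error from edgeR's quasi-likelihood fit of all 12 libraries, with 2 libraries in each group. A gene is said to have risen, fallen or differed where its p-value, adjusted by the Benjamini-Hochberg method over 5719 genes, was at most 0.05. The p-values behind these calls rest on the spread between libraries of the same group, pooled over the 6 groups. That spread has 6 residual degrees of freedom and is drawn toward that of other genes, with a median weight of 25.5 prior degrees of freedom. Across the members, the IDRm strain had the lower footprint level of most permease genes at all 3 temperatures, and both strains raised most permease genes and lowered GLN1 in heat.

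The ammonium permeases carry ammonium across the plasma membrane, and Mep2, the high-affinity member, also acts as an ammonium sensor for filamentous growth. MEP2 (YNL142W, chromosome XIV, 357453 to 358952, plus strand, coding sequence in R64) had 136 and 160 CPM in WT at 30 °C, 421 and 485 at 40 °C, then 369 and 368 at 42 °C. In IDRm it had 33.4 and 36.6 CPM at 30 °C, 61.1 and 58.0 at 40 °C, then 69.0 and 86.0 at 42 °C. Every heated library was above the unheated ones of its strain, and every IDRm library, heated ones included, was below every WT library. MEP2 rose at 40 °C by 1.63 ± 0.09 in WT and by 0.76 ± 0.13 in IDRm, and at 42 °C by 1.33 ± 0.09 and 1.141 ± 0.122. IDRm was lower than WT by a log2 difference of −2.06 ± 0.11 at 30 °C, −2.93 ± 0.10 at 40 °C and −2.25 ± 0.10 at 42 °C, which are 4.18-fold, 7.62-fold and 4.76-fold lower levels.

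MEP1 (YGR121C, chromosome VII, 731449 to 732927, minus strand) encodes a further ammonium permease. It had 33.1 and 34.6 CPM in WT at 30 °C, 199 and 232 at 40 °C, then 222 and 239 at 42 °C. In IDRm the values were 24.5 and 24.5, then 156 and 150, then 165 and 170 CPM. The heated and unheated libraries did not overlap in either strain, and IDRm was below WT at each temperature. Heat raised MEP1 by 2.68 ± 0.10 in WT and 2.64 ± 0.11 in IDRm at 40 °C, and by 2.77 ± 0.10 and 2.77 ± 0.11 at 42 °C. The difference of these responses was −0.04 ± 0.16 at 40 °C and 0.0022 ± 0.13 at 42 °C. IDRm was lower by −0.46 ± 0.13, −0.50 ± 0.09 and −0.46 ± 0.08 at 30, 40 and 42 °C. The call at 30 °C ended without WT 30 °C replicate 1 (−0.49), IDRm 30 °C replicate 1 (−0.45) or IDRm 30 °C replicate 2 (−0.46).

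MEP3 (YPR138C, chromosome XVI, 810984 to 812453, minus strand) encodes the low-affinity, high-capacity member. In WT it had 34.0 and 33.3 CPM at 30 °C, 42.6 and 40.6 at 40 °C, then 39.9 and 36.4 at 42 °C. In IDRm it had 23.1 and 22.2, 28.6 and 27.9, and 19.9 and 24.5 CPM. All 6 WT libraries were above all 6 IDRm libraries, and the spread over temperatures was small beside that of MEP1. IDRm was lower by −0.58 ± 0.13, −0.56 ± 0.13 and −0.80 ± 0.13 at 30, 40 and 42 °C. The changes at 40 °C, 0.30 ± 0.12 in WT and 0.32 ± 0.14 in IDRm, passed the test, but neither did without any 1 of the 4 libraries compared (0.26 to 0.34 in WT and 0.28 to 0.34 in IDRm). Scaled by library size alone they were 0.06 and 0.09 and were not called. At 42 °C the changes were 0.19 ± 0.12 and −0.03 ± 0.14 and were not called.

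The 3 permeases thus differed in proportion between the strains, a measure taken within each library and free of its scaling. Of their summed CPM per kilobase of coding sequence, MEP2 held 68.2% ± 2.3 in WT at 30 °C, 63.4% ± 0.36 at 40 °C and 57.5% ± 0.90 at 42 °C (mean ± SD, n = 2). In IDRm it held 42.2% ± 1.9, 24.4% ± 0.16 and 28.6% ± 2.5. MEP1 held 15.9% ± 0.77, 30.6% ± 0.40 and 36.4% ± 1.4 in WT, and 30.0% ± 0.54, 63.7% ± 0.008 and 63.0% ± 3.1 in IDRm. MEP2 was the largest of the 3 in every WT library and in the unheated IDRm libraries, and MEP1 was the largest in the heated IDRm libraries. Their coding sequences were 71.5% identical for MEP1 and MEP3, 59.6% for MEP2 and MEP3 and 58.0% for MEP1 and MEP2 over the aligned bases. None of the 3 shared a 28-base stretch with another coding sequence, so reads of footprint length are not expected to be split among them.

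**Figure D2:**
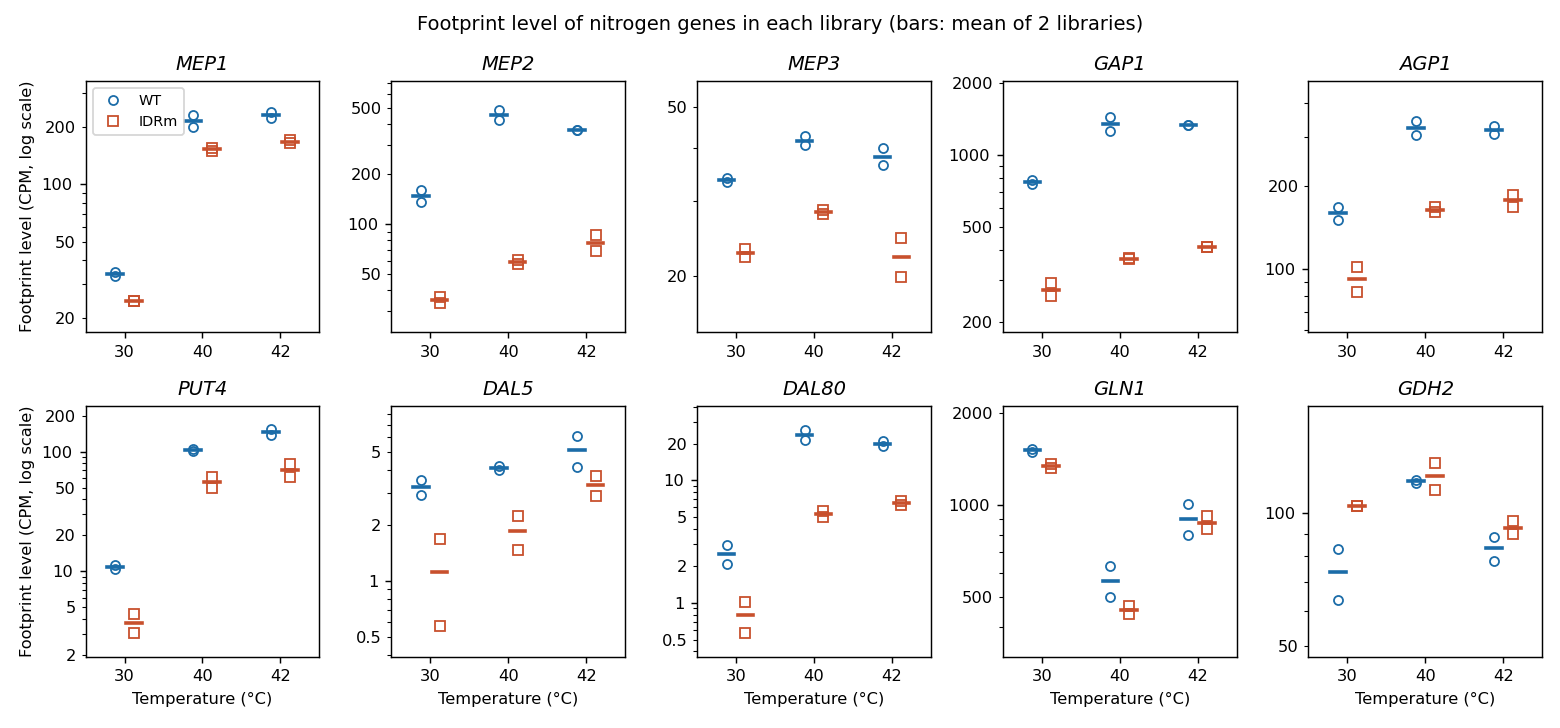
Footprint level in CPM on a log axis (y) against temperature (x) for each member, with 1 symbol per library, circles for WT, squares for IDRm, and bars at the mean of 2 libraries. MEP2 and GAP1 lie lower in every IDRm library than in every WT library, while GLN1 falls with heat in both strains.

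GAP1 (YKR039W, chromosome XI, 515063 to 516871, plus strand) encodes the general amino acid permease, which takes up nearly all amino acids when nitrogen is poor. It had 754 and 786 CPM in WT at 30 °C, 1260 and 1440 at 40 °C, then 1340 and 1340 at 42 °C. In IDRm it had 256 and 289, 366 and 369, and 410 and 411 CPM. As with MEP2, the highest IDRm library was below the lowest WT library. GAP1 rose by 0.81 ± 0.07 and 0.80 ± 0.07 in WT at 40 and 42 °C, and by 0.43 ± 0.07 and 0.59 ± 0.07 in IDRm. IDRm was lower by −1.497 ± 0.073, −1.88 ± 0.07 and −1.71 ± 0.07 at 30, 40 and 42 °C, or 2.82-fold, 3.67-fold and 3.26-fold.

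AGP1 (YCL025C, chromosome III, 76018 to 77919, minus strand) encodes a low-affinity permease of broad range. Its WT libraries had 150 and 168 CPM at 30 °C, 305 and 343 at 40 °C, then 308 and 329 at 42 °C, and its IDRm libraries 82.5 and 102, 167 and 161, and 168 and 186 CPM. The groups of the strains did not overlap at any temperature, although heated IDRm reached the level of unheated WT. AGP1 rose by 1.04 ± 0.09 and 1.01 ± 0.09 in WT and by 0.82 ± 0.10 and 0.93 ± 0.10 in IDRm at 40 and 42 °C. IDRm was lower by −0.77 ± 0.10, −0.99 ± 0.09 and −0.85 ± 0.09 at the 3 temperatures. In AGP1, 1.07% of the 28-base stretches occur in another coding sequence.

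PUT4 (YOR348C, chromosome XV, 986899 to 988782, minus strand) encodes the high-affinity proline permease and had the largest relative rise of the permease genes. In WT it went from 11.3 and 10.5 CPM at 30 °C to 106 and 102 at 40 °C and 139 and 154 at 42 °C. In IDRm it went from 3.03 and 4.36 CPM to 62.1 and 49.5, and to 61.2 and 79.3. All heated libraries were above all unheated ones, and IDRm was below WT at each temperature. The rises were 3.23 ± 0.15 and 3.72 ± 0.14 in WT and 3.89 ± 0.20 and 4.22 ± 0.19 in IDRm. IDRm was lower by −1.56 ± 0.26 at 30 °C, −0.89 ± 0.12 at 40 °C and −1.06 ± 0.11 at 42 °C.

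DAL5 (YJR152W, chromosome X, 719666 to 721297, plus strand), whose product imports allantoate, was near the limit of detection, with 3 to 28 counts in a library. It had 2.92 and 3.52, 4.18 and 3.97, and 4.14 and 6.06 CPM in WT at 30, 40 and 42 °C, and 0.569 and 1.68, 1.47 and 2.24, and 3.71 and 2.88 CPM in IDRm. IDRm libraries were below WT libraries at each temperature, by −1.41 ± 0.46, −1.12 ± 0.46 and −0.56 ± 0.36, of which only the value at 30 °C passed the test. That call ended without WT 30 °C replicate 1 (−1.58), WT 30 °C replicate 2 (−1.32) or IDRm 30 °C replicate 1 (−0.88). The value at 42 against 30 °C in IDRm, 1.5 ± 0.49, passed with all libraries and did not without IDRm 30 °C replicate 1 (0.96) or IDRm 42 °C replicate 1 (1.29). The other heat changes of DAL5, between 0.38 and 0.67, were not called.

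DAL80 (YKR034W, chromosome XI, 506898 to 507707, plus strand) encodes the GATA repressor of nitrogen genes and is itself a target of repression. It had 2.07 and 2.97 CPM in WT at 30 °C, 21.2 and 25.9 at 40 °C, then 19.2 and 20.8 at 42 °C. In IDRm it had 0.569 and 1.01 CPM at 30 °C, from 3 and 6 counts, then 5.62 and 4.98, and 6.77 and 6.25. Heated libraries were above unheated ones in each strain, and IDRm was below WT at each temperature. DAL80 rose by 3.32 ± 0.24 and 3.06 ± 0.24 in WT and by 2.69 ± 0.43 and 2.99 ± 0.40 in IDRm. IDRm was lower by −2.16 ± 0.22 at 40 °C and −1.60 ± 0.21 at 42 °C. At 30 °C the difference was −1.53 ± 0.49, a call that ended without any 1 of the 4 libraries (−2.0 to −1.21).

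GLN1 (YPR035W, chromosome XVI, 642208 to 643320, plus strand) encodes glutamine synthetase, which joins ammonium to glutamate. It had 1490 and 1530 CPM in WT at 30 °C, 502 and 631 at 40 °C, then 798 and 1010 at 42 °C, and in IDRm 1360 and 1320, 441 and 468, and 833 and 921 CPM. It was highest at 30 °C, lowest at 40 °C and between at 42 °C in both strains, with no overlap between temperatures. GLN1 fell by 1.41 ± 0.12 in WT and by 1.56 ± 0.12 in IDRm at 40 °C, and by 0.74 ± 0.11 and 0.61 ± 0.11 at 42 °C. The strains differed by −0.17 ± 0.11, −0.32 ± 0.12 and −0.04 ± 0.11, and none of these values was called in the main fit. With library size alone (−0.34), either replicate block (−0.31) or the compared libraries alone (−0.315), the one at 40 °C was called. The compared libraries alone also gave a call at 30 °C (−0.19). The value at 40 °C passed without WT 40 °C replicate 1 (−0.47).

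GDH2 (YDL215C, chromosome IV, 70640 to 73918, minus strand) encodes the NAD-dependent glutamate dehydrogenase, which releases ammonium from glutamate. It had 83.2 and 63.8, 119 and 117, and 88.6 and 77.9 CPM in WT at 30, 40 and 42 °C, and 104 and 104, 113 and 130, and 89.6 and 96.1 CPM in IDRm. It was the member with a higher level in IDRm at 30 °C, by 0.47 ± 0.10, whereas the differences at 40 and 42 °C were 0.04 ± 0.10 and 0.15 ± 0.11 and not called. GDH2 rose at 40 °C by 0.65 ± 0.11 in WT. In IDRm the change of 0.22 ± 0.10 passed the test but did not without IDRm 30 °C replicate 1 (0.21), IDRm 30 °C replicate 2 (0.22) or IDRm 40 °C replicate 2 (0.12), and it was −0.0032 when scaled by library size alone. At 42 °C the changes were 0.15 ± 0.11 and −0.16 ± 0.10 and not called, but WT passed without WT 30 °C replicate 1 (0.39).

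**Figure D3:**
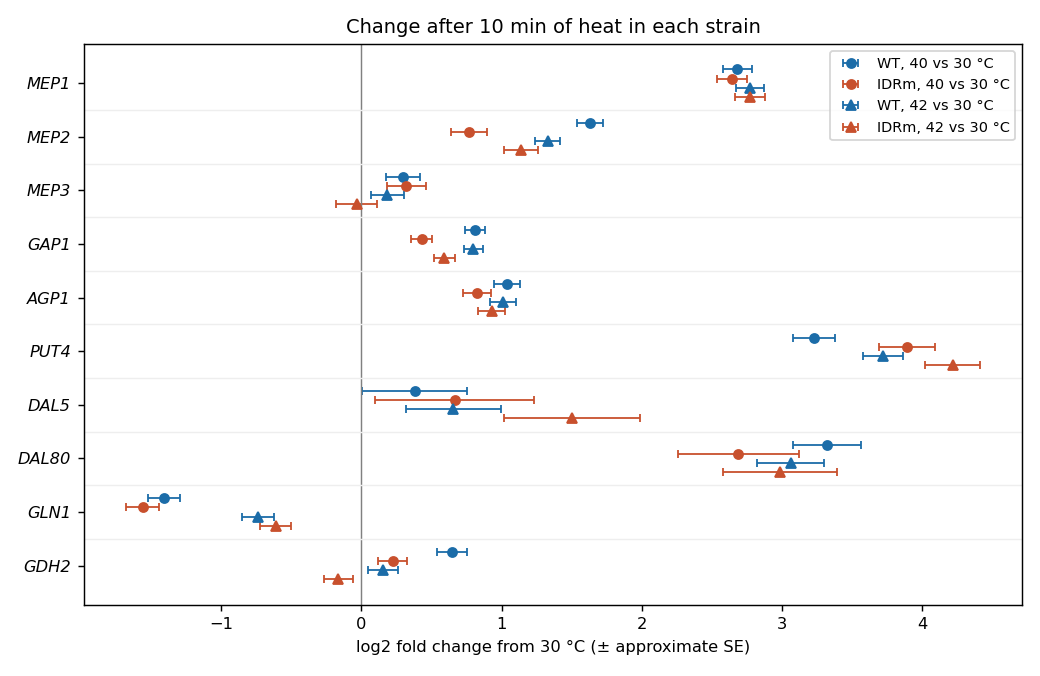
The log2 fold change from 30 °C (x) of each member (y) at 40 °C (circles) and 42 °C (triangles) in WT (blue) and IDRm (red), with bars of 1 approximate standard error. MEP1, PUT4 and DAL80 lie at about 2.6 to 4.2 in both strains, and GLN1 lies below 0.

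Counted together, in WT 8 of 10 members rose and 1 fell at 40 °C, where 75.5% of all tested genes changed, 36.1% higher and 39.5% lower. At 42 °C in WT 6 rose and 1 fell, against 63.6% of all genes, 30.0% higher and 33.6% lower. In IDRm 8 rose and 1 fell at 40 °C, against 77.3%, 37.4% higher and 39.9% lower. At 42 °C in IDRm 7 rose and 1 fell, against 73.5%, 36.8% higher and 36.7% lower. Heated and unheated libraries did not overlap in 10 and 9 members in WT at 40 and 42 °C, against 87.0% and 78.6% of all genes, and in 9 and 9 members in IDRm, against 88.9% and 87.7%. The median log2 change of the members was 0.93 and 0.91 in WT and 0.72 and 1.04 in IDRm, while that of all tested genes lay between −0.03 and 0.02. The 40 and 42 °C comparisons of a strain share their 30 °C libraries. Since the members were chosen with these values known, nothing is read from the counts.

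Between the heated groups of WT, MEP2 fell by 0.30 ± 0.09 from 40 to 42 °C, PUT4 and GLN1 rose by 0.49 ± 0.11 and 0.67 ± 0.11, and GDH2 fell by 0.49 ± 0.11. These are 4 of 10 members, where 59.2% of all genes differed, 29.8% higher and 29.4% lower. The groups did not overlap in 6 members, against 78.1% of all genes. The MEP2 call ended without WT 40 °C replicate 2 (−0.20), and its value was 0.0025 when scaled by library size alone, a scale that moved the median gene by 0.31 between these groups. On that scale GAP1 and AGP1 went from −0.01 and −0.03 to 0.29 and 0.27 and were called, MEP1 was called at 0.39 and GDH2, at −0.19, was not. In IDRm 5 of 10 members differed between 40 and 42 °C, against 54.4% of all genes, 27.3% higher and 27.0% lower, and the groups did not overlap in 9, against 76.7%. GLN1 rose by 0.95 ± 0.12 and held its call without any 1 library. MEP2 at 0.38 ± 0.12, PUT4 at 0.33 ± 0.13, MEP3 at −0.35 ± 0.15 and GDH2 at −0.39 ± 0.11 each lost it without IDRm 40 °C replicate 2 (0.34, 0.17, −0.37 and −0.29). MEP2 and PUT4 also lost it without IDRm 42 °C replicate 2 (0.21 and 0.13), and MEP3 without IDRm 40 °C replicate 1 (−0.34) or IDRm 42 °C replicate 1 (−0.21).

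The comparison of the strains at each temperature addressed what the Ded1 variant goes with. At 30 °C 8 of 10 members were lower in IDRm and 1 was higher, where 16.3% of all tested genes differed, 6.75% lower and 9.58% higher. At 40 °C 7 were lower, where 25.9% of all genes differed, 14.5% lower and 11.4% higher. At 42 °C 7 were lower, where 41.1% differed, 20.7% lower and 20.4% higher. DESeq2 called 7 members at 30 °C, where edgeR called 9, and gave no adjusted p for 1. At 40 and 42 °C it called 7, as edgeR did, and at 40 °C it gave no adjusted p for 1. The calls of MEP1, DAL5 and DAL80 at 30 °C depended on single libraries, as given above. The member medians were −1.09, −0.94 and −0.82, and the medians of all genes −0.0034, −0.01 and 0.0026. The libraries of the strains did not overlap in 10, 9 and 9 of the members, while this held for 55.0%, 63.2% and 69.9% of all genes. MEP2, GAP1, AGP1, PUT4 and MEP3 were lower in IDRm at all 3 temperatures and kept these calls without any 1 library. These 3 comparisons use separate libraries, but the labels name main cultures divided over the temperatures, so the comparisons are not independent. The member choice also had their values in view, and IDRm and WT are each 1 strain.

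**Figure D4:**
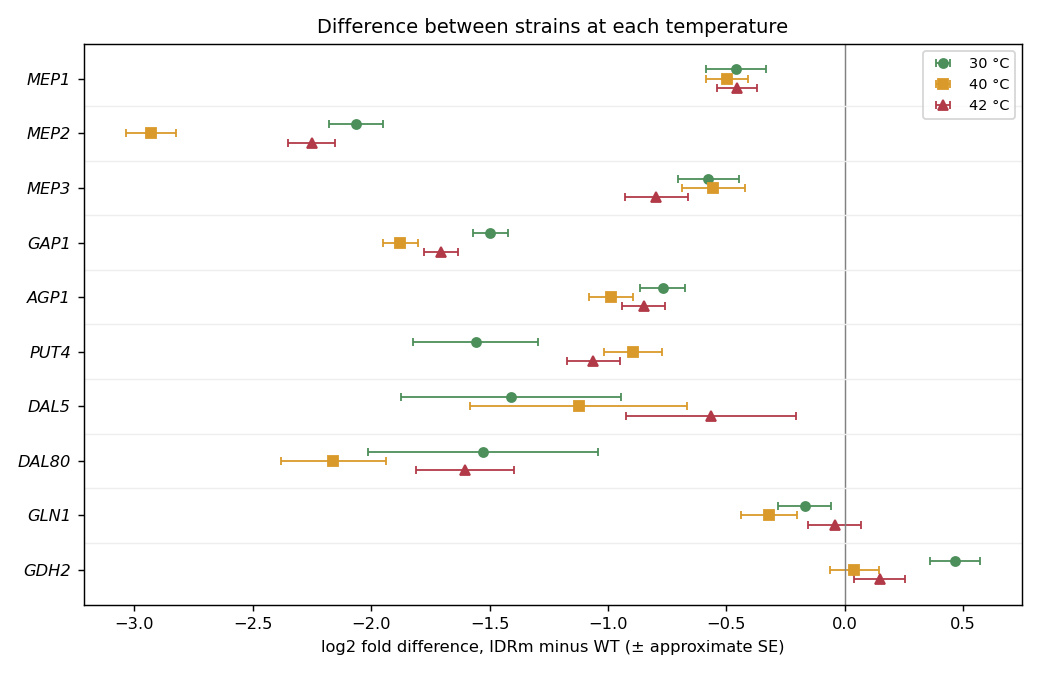
The log2 difference between IDRm and WT (x) of each member (y) at 30 °C (green circles), 40 °C (orange squares) and 42 °C (red triangles), with bars of 1 approximate standard error. MEP2 lies farthest to the left at each temperature, from −2.93 to −2.06, and GLN1 lies between −0.32 and −0.04.

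Set beside the upstream GATA matches, in order of their number, MEP2 with 7 differed by −2.93 to −2.06, MEP3 with 5 by −0.80 to −0.56 and GAP1 with 4 by −1.88 to −1.497. With 3 matches each, DAL80 differed by −2.16 to −1.53 and DAL5 by −1.41 to −0.56. With 2 matches each, AGP1 differed by −0.99 to −0.77 and MEP1 by −0.50 to −0.46. With none in the window, PUT4 differed by −1.56 to −0.89, GLN1 by −0.32 to −0.04 and GDH2 by 0.04 to 0.47. A match describes letters only, and binding was not measured here.

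Whether the strains responded differently to heat was tested as the difference of their changes. From 30 to 40 °C, MEP2 and GAP1 rose less in IDRm than in WT, by −0.86 ± 0.16 and −0.38 ± 0.10, and these 2 of 10 members are set against 12.3% of all genes, 8.52% with a lower and 3.81% with a higher response. The GAP1 call ended without WT 40 °C replicate 2 (−0.28) or IDRm 30 °C replicate 2 (−0.29). GDH2, at −0.42 ± 0.15, was not called with all libraries and was called without WT 30 °C replicate 1 (−0.67) or IDRm 40 °C replicate 2 (−0.53). PUT4 had the larger rise in IDRm, with a difference of 0.66 ± 0.30 that was not called. From 30 to 42 °C, edgeR called 0 of 10 members, against 27.4% of all genes, 16.1% lower and 11.4% higher, with 2 members at an unadjusted p under 0.05 and 0 called by DESeq2, which gave no adjusted p for 2. MEP2 was then at −0.19 ± 0.15 and GAP1 at −0.21 ± 0.10, and GDH2 was called without WT 30 °C replicate 1 (−0.56). From 40 to 42 °C, a comparison added after the data were seen, MEP2 differed by 0.68 ± 0.15, the 1 member called, against 10.1% of all genes, 6.24% higher and 3.85% lower. That call ended without IDRm 42 °C replicate 2 (0.51), and GLN1 was called without WT 42 °C replicate 2 (0.46).

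Per kilobase of coding sequence, which allows levels of different genes to be compared, GLN1 was the highest member in 5 of the 6 groups. In WT at 30 °C GLN1 had 1350 ± 26.8 CPM per kilobase, GAP1 425 ± 12.4, MEP2 98.7 ± 11.3 and AGP1 83.6 ± 6.41 (mean ± SD, n = 2). MEP1, MEP3 and GDH2 followed at 22.9 ± 0.74, 22.9 ± 0.38 and 22.4 ± 4.17, a difference within their spread, above PUT4 at 5.80 ± 0.29, DAL80 at 3.11 ± 0.79 and DAL5 at 1.97 ± 0.26. In WT at 40 °C GAP1, at 746 ± 72.7, was above GLN1, at 509 ± 81.8. In IDRm at 30 °C the order was GLN1 at 1200 ± 27.4, GAP1 at 150 ± 12.8, AGP1 at 48.6 ± 7.39, GDH2 at 31.7 ± 0.15 and MEP2 at 23.3 ± 1.51. Levels of MEP2 and GDH2 thus stood in the opposite order in the unheated strains. At 42 °C in WT GLN1, at 813 ± 136, and GAP1, at 740 ± 2.73, were within the spread of GLN1.

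Over the 6 group means, MEP2 and GAP1 had the most similar patterns of any pair of members (Pearson r = 0.994 of log2 CPM), followed by MEP1 and PUT4 (r = 0.987). These points share libraries and are given as a description, and r compares the shape of a pattern and not its size. Outside the members, among 3968 genes whose mean reached 20 CPM, the gene most like MEP2 was BTS1 (r = 0.960), the one most like MEP1 was PDR10 (r = 0.999) and the one most like MEP3 was PTR2, the peptide transporter (r = 0.979). GAP1 was most like YJL114W (r = 0.954), which shares 86.9% of its 28-base stretches with other coding sequences, so that its counts are uncertain. For AGP1 the gene was VPS35 (r = 0.985), for PUT4 PXL1 (r = 0.997), for DAL5 ALG2 (r = 0.942), for DAL80 RGT1 (r = 0.989), for GLN1 YPR089W (r = 0.999) and for GDH2 ERV14 (r = 0.990). Group means ran from 17.9 to 24.5 CPM for BTS1 against 35.0 to 453 for MEP2, and from 32.0 to 45.0 for PXL1 against 3.70 to 147 for PUT4. From 30 to 40 °C in IDRm, BTS1 went from 18.3 to 17.9 CPM, where MEP2 rose. PTR2, at 393 to 692 CPM, and MEP3, at 22.2 to 41.6, were closer in relative size. Patterns with r above 0.9 were found in 7 genes each for MEP2 and GAP1, and in 324 for MEP1 and 787 for GLN1.

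Another 69 genes of nitrogen transport, catabolism, assimilation and control, all tested, were read beside the members. They were listed by function and not for how they moved, but with earlier results of these data known, so their p-values describe these libraries and are not independent evidence. In WT at 40 °C 34 rose and 22 fell, with a median of 0.26, against 36.1% and 39.5% of all genes. Of 17 nitrogen catabolism genes, 12 rose and 2 fell. PUT1, proline oxidase, which acts on what Put4 imports, rose from 52.07 ± 4.0 to 850.1 ± 60.0 CPM, by 4.05 ± 0.11 (edgeR, adjusted p = 4.24e-19), and ARO10, a decarboxylase of aromatic amino acid breakdown, by 2.51 ± 0.12 (adjusted p = 1.01e-16). Of 17 nitrogen regulators, 8 rose and 3 fell. GAT1 was at 1.13 ± 0.10 (edgeR, adjusted p = 2.47e-12) and NPR1, a kinase that keeps permeases at the surface, at 0.94 ± 0.08 (adjusted p = 6.05e-12).

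Of the 22 other permeases, 9 rose and 10 fell in WT at 40 °C, near the 36.1% and 39.5% of all genes. The same shares stand beside the other lists of this paragraph. MMP1, for S-methylmethionine, was at −2.17 ± 0.14 (edgeR, adjusted p = 1.78e-15) and BAP3, for branched-chain amino acids, at −2.14 ± 0.11 (adjusted p = 4.42e-18). Of 7 genes of permease ubiquitination 5 fell and 1 rose, with RSP5 at −2.02 ± 0.11 (adjusted p = 2.45e-17) and BUL2, an adaptor, at −1.09 ± 0.13 (adjusted p = 3.93e-09). Ammonium assimilation and export genes rose in 4 and fell in 2 of 6 cases, the latter being ATO3, a membrane protein of ammonium export, at −1.03 ± 0.10 (adjusted p = 5.55e-11) and GLT1, glutamate synthase, at −1.01 ± 0.08 (adjusted p = 2.98e-13).

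In WT at 42 °C 24 of the 69 rose and 23 fell, with a median of −0.04, against 30.0% and 33.6% of all genes. PUT1 and ARO10 rose by 3.14 ± 0.11 (edgeR, adjusted p = 1.22e-16) and 1.11 ± 0.12 (adjusted p = 1.46e-08). TAT2, a tryptophan permease, and OPT1, a peptide transporter, were at −2.60 ± 0.12 (adjusted p = 1.97e-18) and −1.53 ± 0.10 (adjusted p = 2.69e-14), and RSP5 at −2.32 ± 0.11 (adjusted p = 1.38e-18). Against 40 °C, 13 of the 69 were higher and 30 lower in WT, where 29.8% and 29.4% of all genes were. Among the lower were AGP2 at −2.12 ± 0.12 (adjusted p = 3.36e-16) and ARO10 at −1.40 ± 0.11 (adjusted p = 1.07e-11).

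In IDRm 32 of the 69 rose and 23 fell at 40 °C, against 37.4% and 39.9% of all genes, and 28 rose and 24 fell at 42 °C, against 36.8% and 36.7%. PUT1 rose by 4.32 ± 0.12 and 3.77 ± 0.12 (edgeR, adjusted p = 2.07e-19 and 6.16e-18) and CAR1, arginase, by 2.22 ± 0.11 and 1.498 ± 0.112 (adjusted p = 3.95e-13 and 3.69e-10). TAT1, a permease for tyrosine and other amino acids whose frame overlaps a noncoding RNA gene, was at −2.58 ± 0.10 at 40 °C (adjusted p = 7.37e-21), and TAT2 at −2.65 ± 0.13 at 42 °C (adjusted p = 2.38e-18). Among the 17 nitrogen catabolism genes, 10 rose and 1 fell at 40 °C, while 13 rose and 3 fell at 42 °C.

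Between the strains, 15 of 69 were lower in IDRm at 30 °C and 7 higher, with a median of −0.05, against 6.75% and 9.58% of all genes, and without IDRm 30 °C replicate 1 the calls fell from 22 to 10. DUR1,2, which breaks down urea, was at −1.09 ± 0.09 (edgeR, adjusted p = 1.48e-10), MMP1 at −0.95 ± 0.11 (adjusted p = 2.53e-07), RSP5 at −0.91 ± 0.10 (adjusted p = 1.71e-08) and GLT1 at −0.67 ± 0.08 (adjusted p = 1.17e-07). GAT1, at −0.40 ± 0.10 (adjusted p = 0.00767), lost its call without IDRm 30 °C replicate 1 (−0.38).

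At 40 °C 27 of the 69 were lower in IDRm and 5 higher, with a median of −0.24, against 14.5% and 11.4% of all genes. The total of 32 calls was 17 without WT 40 °C replicate 2, 21 without IDRm 40 °C replicate 1, 18 without IDRm 40 °C replicate 2 and 18 in DESeq2. Of the 22 other permeases 10 were lower, among them DIP5, for glutamate and aspartate, at −0.91 ± 0.08 (edgeR, adjusted p = 7.09e-11), and of 17 catabolism genes 10 were lower and 3 higher, with ARO10 at −0.86 ± 0.11 (adjusted p = 5.74e-07). GAT1 and GLT1 were at −0.72 ± 0.10 and −0.69 ± 0.08 (adjusted p = 4.96e-07 and 9.22e-08).

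At 42 °C 23 of the 69 were lower in IDRm and 14 higher, with a median of −0.07, against 20.7% and 20.4% of all genes. Other permeases were lower in 13 of 22 cases and higher in 1, with MMP1 at −0.92 ± 0.14 (edgeR, adjusted p = 2.91e-06), whereas catabolism genes were lower in 5 and higher in 7 of 17, with DAL3, of allantoin breakdown, at −0.89 ± 0.16 (adjusted p = 5.05e-05). GLT1 was at −0.93 ± 0.08 (adjusted p = 5.0e-11), the 1 lower gene among 6 of ammonium assimilation and export, where 2 were higher. The catabolism genes had a median of 0.40 at 42 °C. List genes named for the strain comparisons were all lower in IDRm, but others were higher. CHA1, a catabolism gene, had 213.3, 356.0 and 224.5 CPM in IDRm at 30, 40 and 42 °C. In WT it had 106.5, 265.1 and 140.2 CPM.

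**Figure D5:**
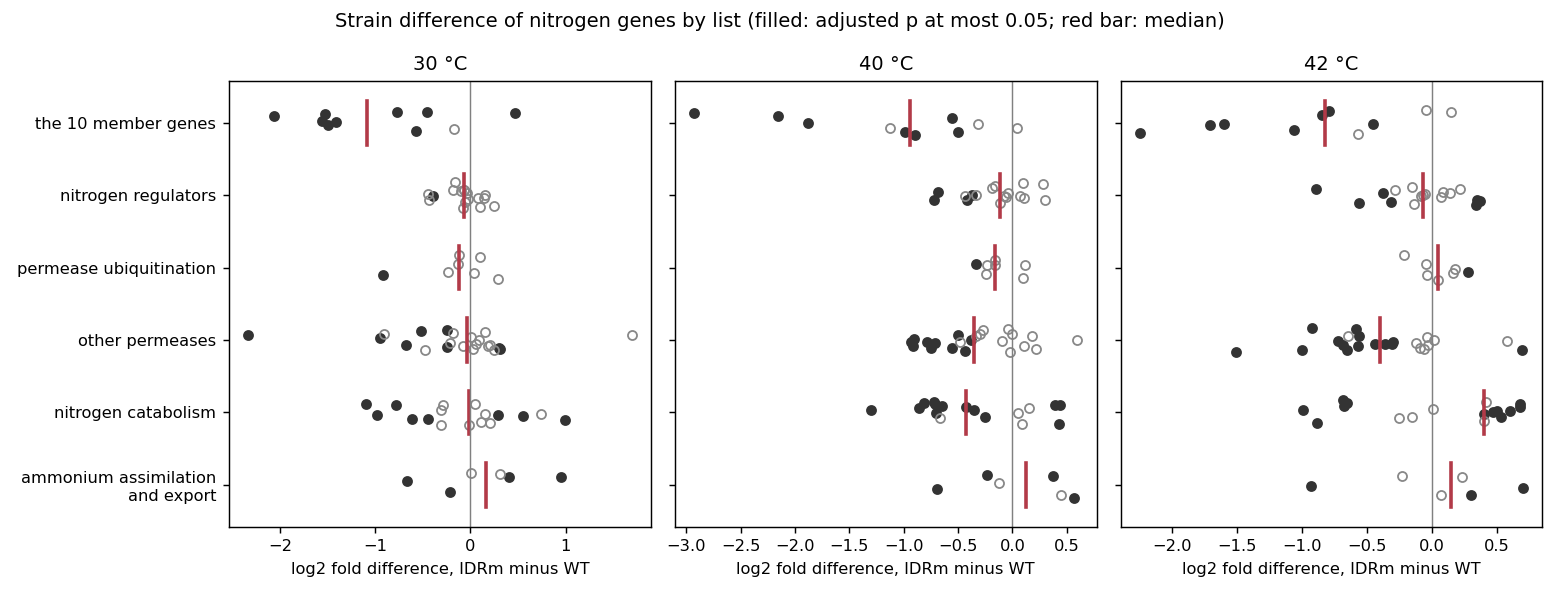
The log2 difference between IDRm and WT (x) of each gene, by list (y), at 30, 40 and 42 °C, with filled points for an adjusted p of at most 0.05, open points for others and a red bar at the list median. The member median lies between −1.09 and −0.82, and the list medians of the other nitrogen genes lie between −0.42 and 0.40.

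The responses of the other nitrogen genes from 30 to 40 °C differed between the strains in 10 of 69 cases, 8 of them lower in IDRm, where 12.3% of all genes differed and 8.52% were lower. ARO10 rose less in IDRm, by −1.41 ± 0.17 (edgeR, adjusted p = 9.18e-07), and DIP5 had 421.9 ± 52.5 and 780.5 ± 42.7 CPM in WT against 432.9 ± 24.6 and 414.3 ± 8.43 in IDRm, a difference of −0.95 ± 0.11 (adjusted p = 2.09e-07). RSP5 fell less in IDRm, by 0.75 ± 0.16 (adjusted p = 0.00162), from a lower unheated level. From 30 to 42 °C 11 were higher and 7 lower, against 27.4% of all genes, 11.4% higher and 16.1% lower. CAR1 was at 0.83 ± 0.16 (edgeR, adjusted p = 0.000545). The 18 calls became 10 without IDRm 42 °C replicate 2 and 10 in DESeq2.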

How the data were processed

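Gene counts of ribosome footprints were used as the authors deposited them, 1 column for each of 12 libraries. Per the submitters' processing notes the build was R64 and the tools were STAR (2.5.2b), Bowtie2 (2.2.6), cutadapt (1.17) and bcl2fastq (2.17.1.14). Which tool did what, how reads were counted and whether strand was used is not stated in these notes or labels. Of 6697 identifiers, 6008 were in RefSeq's R64 annotation, all members among them.

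Counts were fitted in edgeR (version 4.0.16, R version 4.3.3) with a mean for each group and TMM scaling. Genes had to pass filterByExpr, set to 10 counts in a library and 15 in total. Robust quasi-likelihood F tests gave 12 comparisons from 1 fit with 6 residual degrees of freedom. The approximate standard error is the size of a log2 change over the root of its F. Levels are CPM on scaled library sizes, and patterns were compared on log2(CPM + 0.5). The tests were tried on simulated counts of 5632 genes for WT at 40 against 30 °C. Of 67, 67 and 65 genes changed 1.5-fold, 2-fold and 4-fold, 67.2%, 91.0% and 96.9% were recovered. Besides these, 16 unchanged genes were called. Far fewer genes were changed there than were called in the deposited counts. Equal replicate numbers were not taken as pairs, since the labels do not tie a number to a culture and the deviations of equally numbered libraries correlated at −0.0022 to 0.159.

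Members and lists were chosen with earlier results of these data known. All members are named. Of the other nitrogen genes, the called ones with the largest change in each list and a mean of 20 CPM or more could be named, up to 2 for heat against 30 °C and 1 elsewhere. CHA1 was named outside this rule, as a gene with a higher level in IDRm. Alternatives were DESeq2 (version 1.42.0), its size factors, library size alone, no filter, replicate blocks, the compared libraries alone and each library left out.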

Additional observations from a re-analysis of the deposited data

Results flagged for a closer look

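The heat response of some genes differed between the strains by the test of the difference itself (edgeR's quasi-likelihood test over all genes). MEP2 and GAP1 are members, chosen with earlier results of these data known. The others are called genes with the largest change in their list, so all values here are a description. Of all tested genes, 12.3% differed from 30 to 40 °C, 27.4% from 30 to 42 °C and 10.1% from 40 to 42 °C. From 30 to 40 °C the log2 response in IDRm minus that in WT was −0.865 for MEP2, −0.380 for GAP1, 0.751 for RSP5, −0.946 for DIP5 and −1.41 for ARO10. From 30 to 42 °C it was −0.480 for NPR3, 0.966 for RSP5, −0.718 for DIP5, 0.827 for CAR1 and 0.288 for GDH1. From 40 to 42 °C, the comparison added after the data were seen, it was 0.678 for MEP2, 0.584 for GAT1, 0.616 for PAR32, 1.36 for ARO10 and 0.304 for GDH1. DESeq2's Wald test did not call NPR3 (−0.53) or GDH1 (0.23) from 30 to 42 °C. Nor did it call GAT1 (0.51), PAR32 (0.53) or GDH1 (0.23) from 40 to 42 °C. Some of these calls ended when 1 library was left out: GAP1 for 40 against 30 °C at −0.29 to −0.28, MEP2 for 42 against 40 °C at 0.51, NPR3 at −0.54 to −0.34, GDH1 at 0.22 to 0.25 for 42 against 30 °C and 0.25 to 0.33 for 42 against 40 °C, and PAR32 at 0.40 to 0.61. For 42 against 30 °C, the NPR3 call ended without WT 30 °C replicate 1 (−0.51) or WT 30 °C replicate 2 (−0.47), among others. The GDH1 call for 42 against 30 °C ended without WT 30 °C replicate 1 (0.22), among others. Groups of 2 libraries are too small to look for outlying samples.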

How the results depend on the processing

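Counts of called members and of the 69 other nitrogen genes stayed within 1.5 times of the main count in every alternative run, except in those given here. For IDRm at 42 against 40 °C, 5 called members (3 higher, 2 lower) became 3 (1 higher, 2 lower) with DESeq2 size factors, 2 with DESeq2's Wald test and 1 to 4 with a library left out (1 without IDRm 40 °C replicate 2 and 3 without IDRm 42 °C replicate 2). For other nitrogen genes between the strains, 22 calls at 30 °C became 10 to 21 with a library left out, and 32 at 40 °C became 18 with DESeq2 and 17 to 26 with a library left out. For the strain difference in response to 40 °C, 2 called members became 1 to 3 with a library left out. For that to 42 °C, 0 members became 1 with library size alone (GAP1, −0.28) and 0 to 1 with a library left out, and 18 other nitrogen genes (11 higher, 7 lower) became 10 with DESeq2 (4 higher, 6 lower) and 10 to 19 with a library left out. For 42 against 40 °C, 1 member became 0 to 2 with a library left out, and 6 other nitrogen genes became 3 with library size alone, 1 with DESeq2, 10 with the compared libraries alone and 2 to 9 with a library left out (2 without IDRm 42 °C replicate 1, and 3 without WT 40 °C replicate 1 or IDRm 42 °C replicate 2). Where a group lost a library, the remaining one was assumed to vary like the other groups.

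Library size alone moved the median gene by −0.24 and −0.23 at 40 against 30 °C in WT and IDRm, by 0.31 and 0.21 at 42 against 40 °C, and by −0.11 between the strains at 42 °C. It reversed MEP2 (0.0025), GAP1 (0.29) and AGP1 (0.27) in WT at 42 against 40 °C, and GDH2 (−0.0032) in IDRm at 40 against 30 °C. With the replicate block, the called members were 8 in place of 7 between the strains at 40 °C, where GLN1 was added (−0.31), and the other nitrogen genes 30 in place of 32. With a replicate block within each strain, GDH2 was added (−0.45) to the 2 members whose response to 40 °C differed. DAL5 and DAL80, with as few as 3 counts in an unheated IDRm library, were limited by depth.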
